A study of Mus musculus with 4 samples.

Results

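Genes of neuropeptide signalling were examined in ILC2, the innate lymphocytes of group 2 that reside in tissues and release type 2 cytokines. The cells came from Langerhans islets of fasted and of fed C57BL/6j mice. The set held 8 genes chosen by name, all of them present among the 15835 genes of the table. They were the neuromedin U receptor Nmur1, the calcitonin gene-related peptide (CGRP) precursor Calca, the receptor Calcrl with its partner proteins Ramp1 and Ramp3, the vasoactive intestinal peptide (VIP) receptors Vipr1 and Vipr2, and the enkephalin precursor Penk. No adrenergic receptor was a member. The fasted group had 4 libraries, numbered 1, 3, 4 and 5, and the fed group had 4 libraries with the same numbers, the fed libraries being those whose columns are named control. The labels give no length of fast, age or sex, and do not say how many animals or cells stood behind a library, so each p-value refers to the spread among libraries, some of which may be technical.

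ILC2 carry receptors through which nerves can act on them. Neuromedin U, released by neurons, activates ILC2 through NMUR1, which signals through Gq and calcium. CGRP binds a complex of the receptor CALCRL with RAMP1, while CALCRL with RAMP2 or RAMP3 binds adrenomedullin. The CGRP receptor and both VIP receptors couple to Gs and raise cyclic AMP. ILC2 can also make CGRP themselves, and Calca encodes either calcitonin or CGRP depending on which final exons are used. The counts are per gene and do not separate those forms.

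Library totals ran from 2041697 to 9366807 counts in fasted libraries and from 1797504 to 25252366 in fed libraries. The 10 ILC2 markers gave 10670 to 14671 counts in fasted libraries and 6475 to 25806 in fed libraries, but the lineage factor Rora had only 1 count in fasted and 5 in fed libraries. Transcripts of acinar cells, which make digestive enzymes around the islets, took 2.05% and 2.30% of counts in fasted libraries 1 and 3, 43.8% and 45.8% in fasted libraries 4 and 5, and 25.9% to 46.7% in fed libraries. Neuron and glia markers were scarce, with 21 counts in the fasted and 27 in the fed group over the 7 of 10 listed genes that the table holds.

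Of the 8 members, 5 had enough counts to test, namely Calca, Ramp1, Ramp3, Calcrl and Vipr2. Nmur1, Vipr1 and Penk fell under the limit on low counts and were too scarce to judge. None of the 5 tested members passed the threshold, an adjusted p under 0.05 with edgeR, and neither did any other gene, so the share called was 0% of the 7700 genes tested. At an unadjusted p under 0.05, 2 of the 5, Calca and Ramp3, were higher in fasted libraries, where 2.77% of all tested genes were, and none was lower, where 1.62% of all tested genes were. No tested member separated the groups without overlap, which 3.52% of all tested genes did. The members were picked with earlier results of these data known, so these counts are a description. The median log2 fold change, fasted minus fed, was 0.37 over the 5 tested members and -0.00 over all tested genes.

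The promoters of Calca, Ramp3 and Ramp1 are shown because these were the members with at least 20 counts in every library. Each is the window of 250 bases before and 50 bases after the gene's start, from RefSeq on GRCm38.p6. They lie at chr7:114636308-114636607 on the minus strand for Calca, chr11:6658283-6658582 on the plus strand for Ramp3 and chr1:91179572-91179871 on the plus strand for Ramp1. Capitals mark TGACG, the short form of the element that the cyclic AMP responsive factor CREB binds, or its reverse complement CGTCA. Calca held TGACG starting 65 bases before the start, Ramp1 held CGTCA starting at base 11 of the transcript, and Ramp3 held neither.
Calca: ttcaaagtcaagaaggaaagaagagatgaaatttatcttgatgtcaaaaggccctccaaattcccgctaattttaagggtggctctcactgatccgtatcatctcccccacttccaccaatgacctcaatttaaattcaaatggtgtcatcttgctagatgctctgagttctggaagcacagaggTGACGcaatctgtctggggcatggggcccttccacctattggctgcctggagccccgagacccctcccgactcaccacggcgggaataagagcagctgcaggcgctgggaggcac
Ramp3: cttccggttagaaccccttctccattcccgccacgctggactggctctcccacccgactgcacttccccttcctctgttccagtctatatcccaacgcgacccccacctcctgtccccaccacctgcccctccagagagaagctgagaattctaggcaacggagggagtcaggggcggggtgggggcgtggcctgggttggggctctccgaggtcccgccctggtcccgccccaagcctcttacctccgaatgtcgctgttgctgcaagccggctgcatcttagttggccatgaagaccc
Ramp1: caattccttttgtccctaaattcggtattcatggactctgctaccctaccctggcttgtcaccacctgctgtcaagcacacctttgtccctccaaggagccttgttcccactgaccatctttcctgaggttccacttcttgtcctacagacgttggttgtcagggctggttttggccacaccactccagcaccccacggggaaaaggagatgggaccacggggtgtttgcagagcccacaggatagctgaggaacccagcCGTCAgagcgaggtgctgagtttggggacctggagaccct
The short element on either strand occurred in 20.8% of the 32851 promoters of the table, the full element TGACGTCA in 1.79% and the AP-1 site TGANTCA in 7.81%. None of the 8 promoters listed for 7 members (both strands searched) held either of the longer motifs. Vipr1 was the only other member with a short element, and Penk was not in the table. A match of letters is not evidence of binding.

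Calca, the CGRP precursor, was higher on average in the fasted libraries. It had 345, 363, 220 and 148 counts in fasted libraries 1, 3, 4 and 5, and 32, 263, 311 and 64 counts in fed libraries 1, 3, 4 and 5. Levels of single genes are given as counts per 1000000 (CPM) over library sizes scaled by the trimmed mean of M-values (TMM). On that scale Calca stood at 80.3, 70.5, 40.4 and 27.9 CPM in fasted libraries, and at 14.2, 35.4, 22.9 and 21.8 CPM in fed libraries. Fasted libraries 1 and 3 were far above every fed library, fasted library 4 was slightly above them, and fasted library 5 lay below fed library 3, so the groups overlapped. The means were 54.8 ± 24.7 CPM in fasted and 23.6 ± 8.79 CPM in fed libraries (SD, n = 4 each). The log2 fold change was 1.20 ± 0.38 (SE), with a 95% interval of 0.36 to 2.04, and it was not called (edgeR, unadjusted p = 0.0092, Benjamini-Hochberg adjusted p = 0.84). The fasted library was the higher one in 4 of 4 pairs of the same number. In mm10, Calca lies on chromosome 7 at 114631478 to 114636357 on the minus strand. GENCODE lists transcripts of it that stop at 114631478 and at 114633293, which are different 3' ends of the gene.

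Ramp3, which turns CALCRL into an adrenomedullin receptor, had the same order of fasted libraries as Calca. It had 379, 220, 130 and 82 counts in fasted libraries 1, 3, 4 and 5, and 28, 104, 182 and 63 in fed libraries 1, 3, 4 and 5. These were 88.3, 42.7, 23.9 and 15.5 CPM in fasted libraries, against 12.4, 14.0, 13.4 and 21.5 CPM in fed libraries. Fasted library 1 stood highest, and fasted library 5 lay within the fed range. The mean was 42.6 ± 32.5 CPM in fasted and 15.3 ± 4.15 CPM in fed libraries (SD, n = 4 each), and the fasted mean was 27.4 CPM without fasted library 1. The log2 fold change was 1.47 ± 0.49 (SE; 95% interval 0.40 to 2.55; edgeR, unadjusted p = 0.012, adjusted p = 0.89), and 0.84 ± 0.39 without that library. The fasted library was higher in 3 of 4 pairs, library 5 being the exception. Ramp3 lies on chromosome 11 at 6658521 to 6677475.

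Both genes were highest in the 2 fasted libraries that held little acinar RNA. Without fasted libraries 1 and 3 the log2 fold change was 0.52 ± 0.41 for Calca and 0.36 ± 0.41 for Ramp3 (SE). With the share of the listed acinar markers as a covariate it was 0.61 ± 0.35 and 0.50 ± 0.39 (SE). Because acinar shares differed so much, counts were also set against the summed ILC2 markers of the same library. Thy1 weighed most in that sum, with 22657 raw counts in the fasted and 27553 in the fed group. Klrg1 came next with 7498 and 8174. Per 10000 ILC2 marker counts, Calca had 323, 247, 181 and 115 counts in fasted libraries 1, 3, 4 and 5, and 49.4, 122, 121 and 88.2 in fed libraries 1, 3, 4 and 5. Ramp3 had 355, 150, 107 and 63.7 in the fasted libraries and 43.2, 48.1, 70.5 and 86.8 in the fed libraries. The order of the fasted libraries was thus the same on this scale, with libraries 1 and 3 highest for both genes. With libraries scaled to those markers, an alternative chosen after the data had been seen, the log2 fold changes were 1.18 ± 0.38 for Calca and 1.44 ± 0.50 for Ramp3. On the same scale T cell markers, over 7 of 9 listed genes, had 326, 230, 334 and 330 counts in fasted libraries 1, 3, 4 and 5. They had 154, 141, 214 and 231 in fed libraries 1, 3, 4 and 5. Fasted libraries 1 and 3 were thus not above fasted libraries 4 and 5 in this sum. The sum rested mainly on 2 genes, Cd3g with 965 and Lef1 with 419 raw counts in the fasted group. In that group Cd3e had 118, Cd3d 11 and Cd8b1 2, and Cd8a and Cd5 had 0. Neuron and glia markers had 0, 18, 0 and 3 raw counts in fasted libraries 1, 3, 4 and 5. In fed libraries 1, 3, 4 and 5 they had 0, 1, 22 and 4. The part of acinar, T cell, neuron and glia RNA in the levels of Calca and Ramp3 was not tested beyond these values. In bulk RNA, fewer cells of a type and less RNA per cell cannot be told apart.

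**Figure D1:**
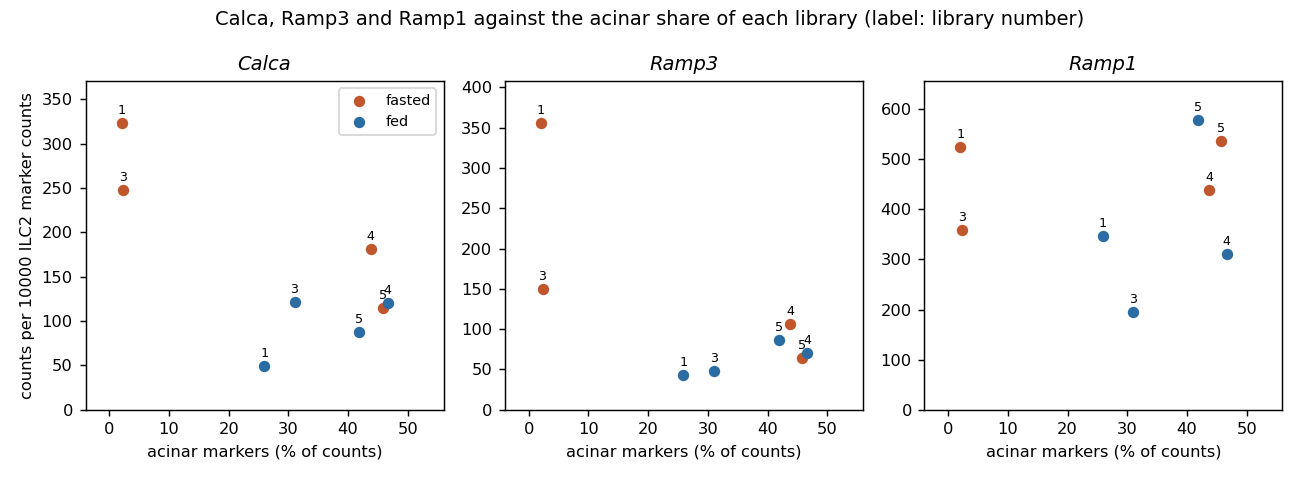
Counts of Calca, Ramp3 and Ramp1 per 10000 ILC2 marker counts (y axis) against the share of counts from acinar markers in percent (x axis), with 1 point per library, labelled by its number, fasted in orange and fed in blue. Fasted libraries 1 and 3, at 2.05% and 2.30% acinar, are the highest points for Calca and Ramp3 but not for Ramp1.

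Ramp1, the partner that makes CALCRL a CGRP receptor, was well covered, and its groups overlapped. It had 559, 527, 532 and 691 counts in fasted libraries 1, 3, 4 and 5, and 225, 423, 800 and 419 in fed libraries 1, 3, 4 and 5. On the scaled level this came to 130, 102, 97.6 and 130 CPM in fasted libraries, and 99.9, 57.0, 58.8 and 143 CPM in fed libraries. The fasted libraries sat within a narrow band, and fed library 5 was above all of them. The means were 115 ± 17.6 CPM in fasted and 89.7 ± 40.6 CPM in fed libraries (SD, n = 4 each), a log2 fold change of 0.37 ± 0.31 (SE; 95% interval -0.31 to 1.04; edgeR, adjusted p = 1.00). The interval thus includes 0 as well as a log2 fold change of 1.04. Without fed library 5 the log2 fold change was 0.69 ± 0.27. Ramp1 lies on chromosome 1 at 91179822 to 91225196.

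Calcrl, the receptor that both RAMP proteins need, was thinly and unevenly covered. It had 20, 2, 27 and 18 counts in fasted libraries 1, 3, 4 and 5, and 1, 0, 92 and 10 in fed libraries 1, 3, 4 and 5. Fed library 4, the deepest, thus held 89.3% of the fed counts, and libraries near 0 occurred in both groups. The levels were 4.66, 0.389, 4.95 and 3.40 CPM in fasted libraries, and 0.444, 0, 6.77 and 3.41 CPM in fed libraries, with means of 3.35 ± 2.09 and 2.66 ± 3.13 CPM (SD, n = 4 each). The fed mean was 1.28 CPM without fed library 4. Its log2 fold change of 0.26 ± 1.09 (SE; edgeR, adjusted p = 1.00) had a 95% interval from -2.14 to 2.66, and its sign turned when fasted library 4, fed library 1 or fed library 3 was left out. Endothelial cells also use Calcrl. The 10 endothelial markers summed to 6.37, 30.2, 16.2 and 7.37 CPM of library totals in fasted libraries 1, 3, 4 and 5. In fed libraries 1, 3, 4 and 5 they summed to 0.556, 6.15, 43.7 and 9.07 CPM. None of the 10 was at 0 counts in either group, but single genes carried some sums. In fasted library 3 only Pecam1 (14.6 CPM on the TMM scale) and Plvap (0.389) were above 0. Ramp2, itself one of the 10, gave 8 of the 13 counts of fasted library 1. As CPM of library totals, Calcrl had 9.80, 0.785, 3.44 and 1.92 in fasted libraries 1, 3, 4 and 5. It had 0.556, 0, 3.64 and 2.39 CPM in fed libraries 1, 3, 4 and 5. On the scale of library totals, fed library 4 was highest for the endothelial markers and fasted library 1 was highest for Calcrl. Per 10000 ILC2 marker counts, fed library 4 was highest for both, at 427 for the endothelial markers and 35.7 for Calcrl. Fed library 4 was also highest for Calcrl on the TMM scale, at 6.77 CPM. The part of endothelial RNA in the Calcrl counts was not tested. Calcrl lies on chromosome 2 at 84330626 to 84425411. The third partner, Ramp2, which is abundant in endothelium, had 26 counts in fasted and 47 in fed libraries, of which fed library 4 held 46, and was not tested.

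Vipr2, one of the pair of VIP receptors, was lower on average in the fasted libraries, at low counts. It had 6, 2, 13 and 15 counts in fasted libraries 1, 3, 4 and 5, and 4, 17, 60 and 28 in fed libraries 1, 3, 4 and 5. The levels were 1.40, 0.389, 2.39 and 2.83 CPM in fasted libraries, and 1.78, 2.29, 4.41 and 9.55 CPM in fed libraries. The fasted library was the lower one in 4 of 4 pairs, and yet the groups overlapped, since fed libraries 1 and 3 lay below fasted library 5. Means were 1.75 ± 1.09 CPM in fasted and 4.51 ± 3.55 CPM in fed libraries (SD, n = 4 each). The log2 fold change was -1.34 ± 0.73 (SE; 95% interval -2.94 to 0.27; edgeR, adjusted p = 1.00), and -0.72 ± 0.76 without fed library 5. It was -0.78 ± 0.82 without the acinar-poor fasted libraries 1 and 3. Vipr2 barely passed the limit on low counts and no longer did so without fed library 3 or once the listed acinar markers were removed. It lies on chromosome 12 at 116077726 to 116146261.

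**Figure D2:**
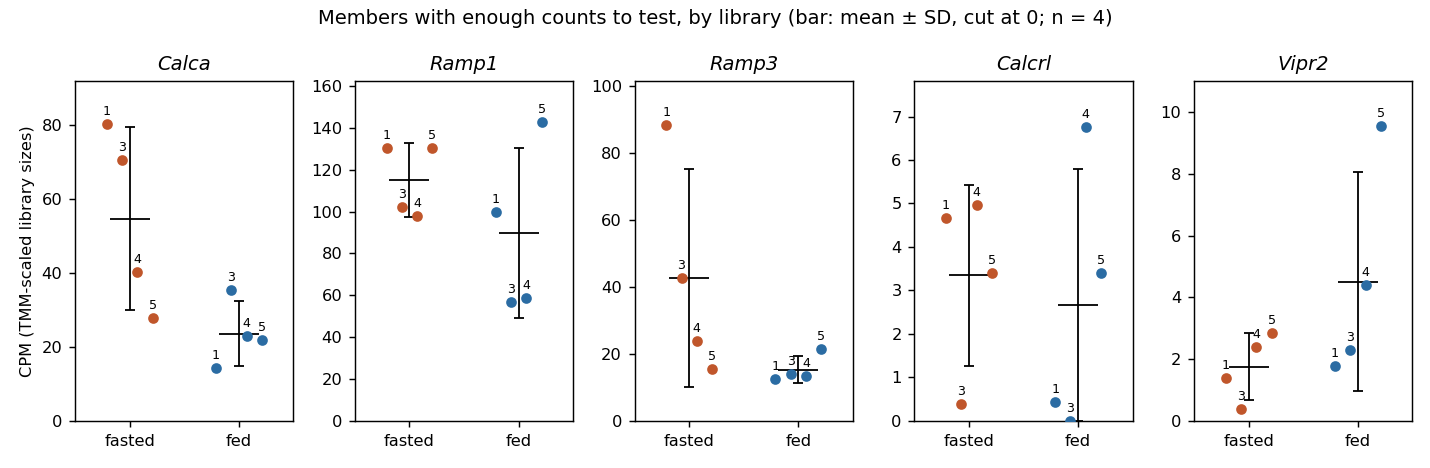
Level of each tested member in CPM over TMM-scaled library sizes (y axis), for fasted (orange) and fed (blue) libraries, with 1 numbered point per library and a black bar for the mean ± SD, truncated at 0 (n = 4 each). Calca and Ramp3 are highest in fasted libraries 1 and 3, Calcrl is near 0 in fasted library 3 and fed libraries 1 and 3, and the groups overlap for each gene.

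Nmur1, the neuromedin U receptor, could not be judged. It had 5, 1, 1 and 3 counts in fasted libraries 1, 3, 4 and 5, and 0, 3, 21 and 5 in fed libraries 1, 3, 4 and 5, or 10 against 29 in all. Fed library 4 held 72.4% of the fed counts. As a share of library totals, the pooled level was 0.459 CPM in fasted libraries, with a 95% Poisson interval of 0.220 to 0.844, and 0.782 CPM in fed libraries, with an interval of 0.524 to 1.12. Such intervals cover counting error only, and the counts may be reads that are not independent molecules. Without a filter on low counts the log2 fold change was -0.82 ± 1.47 (SE; edgeR, unadjusted p = 0.58), with a 95% interval from -3.82 to 2.19, so a difference in either direction would fit these counts. For fed library 1, with 0 counts, the 95% Poisson interval reached up to 2.05 CPM of its total. Nmur1 lies on chromosome 1 at 86386303 to 86426228.

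Vipr1, the other VIP receptor, rested mostly on 1 library in each group. It had 4, 4, 32 and 1 counts in fasted libraries 1, 3, 4 and 5, and 0, 8, 23 and 0 in fed libraries 1, 3, 4 and 5. Fasted library 4 held 78.0% of the fasted counts and fed library 4 held 74.2% of the fed counts. The pooled levels were 1.88 CPM of library totals in fasted libraries (95% Poisson interval 1.35 to 2.55) and 0.836 CPM in fed libraries (0.568 to 1.19). The libraries differed by more than counting error within the fasted group, with 4.08 CPM in library 4 (2.79 to 5.76) against 0.107 CPM in library 5 (0.00270 to 0.595), so the pooled gap says little about fasting. Vipr1 lies on chromosome 9 at 121642716 to 121672954.

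Penk, the precursor of the opioid peptides called enkephalins, was as scarce. It had 2, 12, 1 and 1 counts in fasted libraries 1, 3, 4 and 5, and 0, 0, 18 and 6 in fed libraries 1, 3, 4 and 5. Of the 16 fasted counts 75.0% were in library 3, and of the 24 fed counts 75.0% were in library 4. As a share of library totals Penk was highest in library 3 of the fasted group, at 4.71 CPM, and in library 5 of the fed group, at 1.43 CPM against 0.713 CPM in the deeper fed library 4. The 7 stromal markers, none of them at 0 in either group, summed to 143 CPM of library totals in fasted library 3 and 1.07 to 8.29 CPM in the other fasted libraries. In the fed group they were highest in library 4, at 48.2 CPM, and stood at 17.9 CPM in library 5. The highest fasted library for Penk was thus also the highest for stromal markers. Which fed library was highest for Penk is uncertain. Its 95% Poisson intervals overlapped, at 0.525 to 3.12 CPM in fed library 5 and 0.422 to 1.13 CPM in fed library 4. Whether stromal RNA has a part in the Penk counts was not tested. Pooled levels were 0.734 CPM in fasted (95% Poisson interval 0.420 to 1.19) and 0.647 CPM in fed libraries (0.415 to 0.963). Penk lies on chromosome 4 at 4133531 to 4138819.

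**Figure D3:**
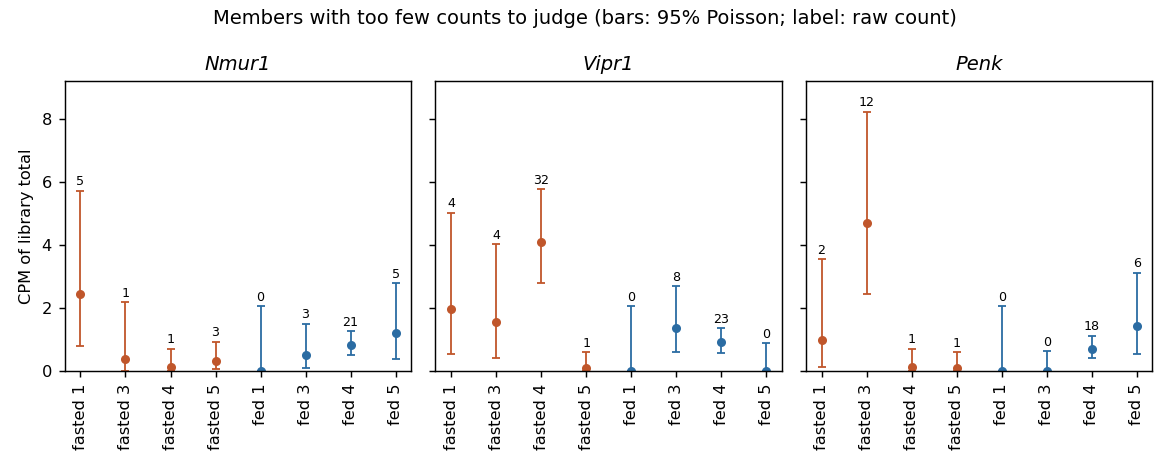
Level of Nmur1, Vipr1 and Penk as CPM of the library total (y axis) in each library (x axis, fasted in orange, fed in blue), with 95% Poisson intervals as bars and the raw count above each. Counts ran from 0 to 32, and the highest points are fasted library 4 for Vipr1 and fasted library 3 for Penk.

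The genes whose levels followed each tested member most closely over the 8 libraries were found by Pearson correlation of log2 CPM with a prior count of 2, among all 7700 tested genes. They are a description, since the points share library composition. For Calca they were Lrrc28 (r = 0.96), Isy1 (0.95) and Mprip (0.95). For Ramp3 they were Prkar1a (0.98), a regulatory subunit of protein kinase A, the antiproliferative gene Btg1 (0.96) and the ubiquitin ligase Znrf1 (0.96). For Ramp1 they were Ldlrad4 (0.95), the triglyceride lipase Pnpla2 (0.94) and Rnf167 (0.93). Calcrl was followed most closely by Gm17644 (0.96), Adck3 (0.95) and 4930470H14Rik (0.94), and Vipr2 by the ubiquitin-conjugating enzyme Cdc34 (0.95), Lsm6 (0.94) and the vitamin C transporter Slc23a2 (0.93).

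The wider pathway was read from 8 further lists, none of which held a called gene. Of 15 neuropeptide ligand genes 5 were in the table and 3 were tested, 1 with a positive and 2 with a negative log2 fold change. Adm, the precursor of adrenomedullin, a ligand of CALCRL with RAMP2 or RAMP3, had 14.2, 7.58, 10.1 and 1.89 CPM in fasted libraries 1, 3, 4 and 5, and 2.22, 2.83, 1.18 and 1.70 CPM in fed libraries 1, 3, 4 and 5. Fasted libraries 1, 3 and 4 were above every fed library and fasted library 5 was not. Its log2 fold change was 2.09 ± 0.63 (SE; edgeR, unadjusted p = 0.0066, adjusted p = 0.79), and 1.60 ± 0.81 without the acinar-poor fasted libraries. Galanin, encoded by Gal, stood at 1.40, 0.971, 84.2 and 91.0 CPM in fasted libraries and 40.9, 18.7, 187 and 83.2 CPM in fed libraries 1, 3, 4 and 5. It was thus nearly absent from the acinar-poor libraries, and its log2 fold change of -0.90 ± 1.35 turned to 0.10 without them. Adm2, a related peptide, had -0.70 ± 0.87. Among the untested ligands the opiomelanocortin gene Pomc had 44 counts in fasted and 32 in fed libraries.

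Of 22 partner and related receptors 12 were in the table and 2 were tested. Crcp, a component of CGRP receptors, stood at 0.50 ± 0.48 on the log2 fold change scale. The adenosine receptor Adora2a, a Gs-coupled receptor well covered in these libraries, had -0.17 ± 0.33. Of the 13 adrenergic receptors and catecholamine enzymes reported here 9 were in the table and 2 were tested. These were the monoamine oxidases Maoa and Maob, with log2 fold changes of -0.72 ± 1.06 and -0.57 ± 0.90. The adrenergic receptors Adrb1 and Adrb3 had 7 and 4 counts in fasted and 14 and 10 in fed libraries, all of them in library 4 of each group, too few to judge. Adra1b, Adra2a and Adra2b had 2 or fewer counts in each group, and Adra1a had none.

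Enzymes that mature or break down peptides had negative log2 fold changes for 7 of 8 tested genes, with a median of -0.63, and 0 passed. Over all tested genes 3865 of 7700 were negative. The 95% interval of each of the 8 genes included 0, so the count is not read as a shift of the list. Furin, a proprotein convertase, was the exception at 388 ± 78.3 CPM in fasted and 285 ± 35.2 CPM in fed libraries (SD, n = 4 each), a log2 fold change of 0.45 ± 0.21. The convertase Pcsk1, an endocrine enzyme, had -1.11 ± 0.67 and the peptidase Dpp7 -1.17 ± 0.86. Without the acinar-poor fasted libraries these values were 0.27 ± 0.28 for Furin, -0.78 ± 0.67 for Pcsk1 and -0.41 ± 0.70 for Dpp7.

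Signal transduction genes below the receptors were mostly tested and went both ways. Of 13 G protein and adenylyl cyclase genes 11 were tested, 5 positive and 6 negative. Adcy7, an adenylyl cyclase of leukocytes, had 63.1, 53.0, 48.4 and 58.9 CPM in fasted libraries, and 38.6, 41.9, 42.1 and 33.4 CPM in fed libraries 1, 3, 4 and 5. Its groups did not overlap, as for 3.52% of all tested genes, and its log2 fold change was 0.52 ± 0.21 (SE; edgeR, unadjusted p = 0.033, adjusted p = 1.00). Adcy9 and Gnb1 had log2 fold changes of -1.17 ± 0.65 and 0.18 ± 0.21. Of 16 protein kinase A, CREB and phosphodiesterase genes 13 were tested, 8 positive and 5 negative. Crem, a cyclic AMP responsive regulator of transcription, had 41.2, 25.6, 34.3 and 16.0 CPM in fasted libraries, and 7.55, 14.1, 14.7 and 8.18 CPM in fed libraries 1, 3, 4 and 5. Every fasted library was above every fed one, and its log2 fold change was 1.36 ± 0.37 (SE; edgeR, unadjusted p = 0.0033, adjusted p = 0.69), not called. Without the acinar-poor fasted libraries it was 1.16 ± 0.46. Prkar1a and Prkacb, protein kinase A subunits, had 0.33 ± 0.21 and 0.51 ± 0.34.

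On the calcium branch used by the neuromedin U receptor, 11 of 13 genes were tested, 6 positive and 5 negative, with a median log2 fold change of 0.09. Prkcq, Itpr2 and Plcb3, a protein kinase C, a calcium release channel and a phospholipase C, had log2 fold changes of 0.45 ± 0.36, -0.43 ± 0.41 and 0.32 ± 0.48. Of 11 genes that desensitise receptors 7 were tested, 6 positive and 1 negative, where 3835 of all 7700 tested genes were positive. The G protein brake Rgs1, the receptor kinase Adrbk1 and the arrestin Arrb2 had 0.50 ± 0.44, 0.32 ± 0.28 and 0.24 ± 0.25, and Adrbk1 turned to -0.19 ± 0.31 without the acinar-poor fasted libraries.

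**Figure D4:**
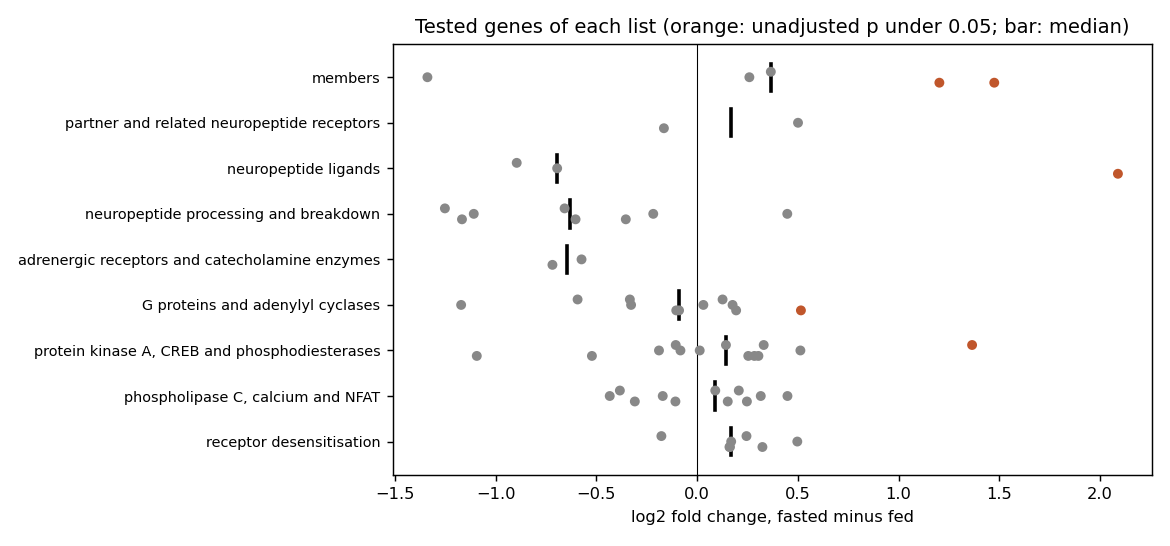
Log2 fold change, fasted minus fed (x axis), of each tested gene of the members and of the 8 further lists (rows), with a black bar at each list's median and genes at an unadjusted p under 0.05 in orange. Calca and Ramp3 among the members, Adm, Adcy7 and Crem are orange, all to the right of 0, and none passed after adjustment.

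**Figure D5:**
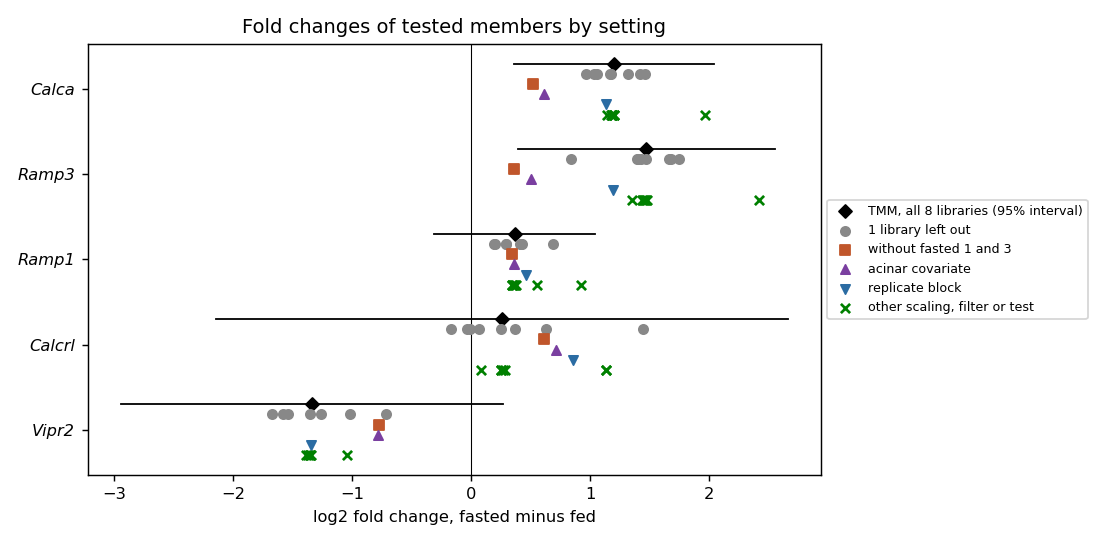
Log2 fold change, fasted minus fed (x axis), of each tested member (rows) with TMM and all 8 libraries, with its 95% interval as a line, and under each alternative as a marker. Calca and Ramp3 remain right of 0 and Vipr2 left of 0 in each alternative that gave a value, Calca and Ramp3 come closest to 0 without fasted libraries 1 and 3, and Calcrl lies on both sides of 0.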

How the data were processed

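Per the labels' protocols, Trizol was used to extract RNA, and CEL-seq2, a barcoded 3' end method, to make libraries. STAR, edgeR and mm10 are named, without versions, per the submitters' processing notes. The authors deposited whole-number counts per gene, but it is unknown here whether these are reads or molecular identifiers and whether strand was used. Each of the 4 sequencing files is labelled as holding both treatments, so treatment was read from the column names. The 4 fasted and 4 fed columns used are those that define the gene set, and 2 further columns were not used. Rows of 11 spike-ins, with 20 counts, were left out.

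The 8 members and all lists were chosen with earlier results of these data known. Genes were kept by edgeR's filterByExpr by group (minimum count 10), which left 7700, and tested in edgeR 4.0.16 (R 4.3.3) with TMM factors, from 0.538 to 2.10, by the robust quasi-likelihood test without covariates. P-values are two-sided, with Benjamini-Hochberg adjustment over all 7700 genes and a threshold of 0.05. Fold changes are log2, fasted minus fed, computed from the deposited counts. Standard errors are the log2 fold change over the root of its F statistic. The text names all members, the 3 genes of smallest p in each list and the 3 genes most correlated with each tested member. One gene of these lists is not reported here.

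Libraries within a group differed beyond counting noise (chi-square per gene 15.0 or more), so none were merged for the test. Only the pooled levels of Nmur1, Vipr1 and Penk sum the libraries of a group. These levels weigh deep libraries most, and their Poisson intervals leave out the spread among libraries. Same-numbered libraries correlated in their deviations from the group means (0.23, 0.14, 0.50 and 0.13 for numbers 1, 3, 4 and 5), each over 0.1. The numbers come from the column names, and the labels do not say what they mark. Pairs of the same number were therefore only described. The main test ignored the numbers, and a replicate block was run as an alternative. Some unlike numbers correlated as much (0.22 for fasted 5 with fed 4, 0.20 for fasted 3 with fed 1), so the pairing is weakly supported. Coordinates are from GENCODE vM21. Alternatives were other scalings and filters, DESeq2 1.42.0, limma-voom 3.58.1, a replicate block, libraries left out and an acinar covariate.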

Additional observations from a re-analysis of the deposited data

Results flagged for a closer look

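Among 16 groups of 4 libraries (8 members in fasted and in fed libraries), 2 had a library far from the other 3. The limit used flags about 1 group in 20 by chance if values are normally distributed. Levels from low counts need not be, so that rate may not hold here and the 2 are a description. Vipr1 stood at 5.87 CPM in fasted library 4, against 0.931, 0.777 and 0.189 CPM in fasted libraries 1, 3 and 5. Penk stood at 2.33 CPM in fasted library 3, against 0.466, 0.184 and 0.189 CPM in fasted libraries 1, 4 and 5. Both values rest on few counts, 32 and 12.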

How the results depend on the processing

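No tested member was called in any of the 19 alternatives. DESeq2 gave no adjusted p for 1649 genes, Calcrl and Vipr2 among them, so these 2 could not be called there. Over all genes edgeR called 0, with 338 at an unadjusted p under 0.05, against 1 with library totals alone, 1 without a filter on low counts, 17 with DESeq2, 0 with limma-voom and 0 with each library left out. With the replicate block 0 were called as well, 536 had an unadjusted p under 0.05, and the log2 fold changes were 1.13 for Calca, 1.19 for Ramp3, 0.46 for Ramp1, 0.85 for Calcrl and -1.34 for Vipr2, so it changed no call. Library totals alone moved the median log2 fold change of all genes by 0.50, and Calca and Ramp3 to 1.97 and 2.42. With 1 library left out, Calca ran from 0.96 to 1.46, Ramp3 from 0.84 to 1.75, Ramp1 from 0.19 to 0.69, Calcrl from -0.17 to 1.44 and Vipr2 from -1.67 to -0.72. Over all 19 alternatives, adjusted p ran from 0.41 to 1.00 for Calca and from 0.42 to 1.00 for Ramp3, lowest with DESeq2 for both. Among the other genes the sign turned for Adora2a (0.51 with library totals, and from -0.43 to 0.024 with 1 library left out), Maoa (0.48 with limma-voom), Gal (0.10), Itpr2 (0.016) and Adrbk1 (-0.19) without the acinar-poor fasted libraries, and Adrbk1 (-0.13) with the acinar covariate, and the cause was not tested. Vipr2 failed the filter without fed library 3, without the listed acinar markers and, with Calcrl, at a CPM of at least 5 in 4 libraries. Scaling to ILC2 markers was chosen after seeing the data. Depth limits Nmur1, Vipr1, Penk, Calcrl and Vipr2, each of which had a library with fewer than 5 counts.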

Other observations

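The muscarinic acetylcholine receptor genes Chrm1 and Chrm3 were singled out after their values had been seen, and neither had enough counts to test. Chrm1 had 0, 2, 0 and 0 counts in fasted libraries 1, 3, 4 and 5, and 0, 36, 18 and 33 counts in fed libraries 1, 3, 4 and 5. The fed counts were thus in 3 of 4 libraries and the fasted counts in 1 of 4. Chrm3 had 4, 0, 4 and 5 counts in fasted libraries 1, 3, 4 and 5 and 0 in each fed library, the deepest library of the study included.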
